A study of Homo sapiens with 15 samples.

Results

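The 2 DiFi cell pellets (HF6 and HF7) were compared with the 2 DiFi plate 1 cell samples (HF6 and HF7) in small RNA sequencing of the DiFi cell line. These are 4 of the 15 samples of the series, taken by their titles: HF6_Cell_Pellet and HF7_Cell_Pellet on one side, HF6_Plate_1_Cells and HF7_Plate_1_Cells on the other. DiFi is an established human colorectal cancer cell line. The series was made to try culture conditions for collecting carriers of secreted small RNA, and it also holds cells of plates 2 and 3, samples labelled HDM (filtered and unfiltered) and media. No genotype, drug, dose, time or passage is given in the labels for any of the 4 samples, so the pellets and the plate 1 cells differ, as far as the labels go, only in the name of the collection. The labels spell out neither HF nor HDM, and what separates plate 1 from plates 2 and 3 is not given in the sources used here. All 4 samples are 1 cell line, and nothing says that HF6 and HF7 are separate cultures. The p-values below therefore measure only a spread between libraries, which may be technical. That spread was estimated over 12 libraries in 6 groups, which include plates 2 and 3 and the HDM samples, and not from these 4 alone.

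MicroRNAs are short RNAs that an Argonaute protein holds and uses to find messenger RNAs by pairing with the seed, the stretch just after the first base of the microRNA. Each is cut from a hairpin, first by Drosha and DGCR8 in the nucleus and then by Dicer in the cytoplasm, and the hairpin gives a 5p and a 3p arm. One arm is usually kept in Argonaute (the guide), and the other (the passenger) is usually degraded, so the passenger is found at a lower level. In gut epithelium miR-192-5p, miR-194-5p, miR-215-5p and the miR-200 family are abundant, and miR-21-5p is abundant in many carcinomas. Some entries of microRNA tables are stretches of other RNAs (U2 small nuclear RNA, small nucleolar RNA, ribosomal or mitochondrial-like sequence) and need not pass through Drosha and Dicer.

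The sequences below are those on which the comparison turns, written 5′ to 3′ as DNA letters with the seed (bases 2 to 8) in capitals. The first 3 were called higher in the pellets (adjusted p under 0.05) and the next 3 lower, all averaging 100 CPM or more in one of the groups. The last 8 are arms of miR-27a, miR-27b, miR-194, let-7c and miR-92a-1, each passenger arm called lower in the pellets and, for miR-27a, miR-194 and let-7c, followed by the guide arm of the same hairpin, whose seed differs.
miR-1246: aATGGATTtttggagcagg
miR-146a-5p: tGAGAACTgaattccatgggtt
miR-182-5p: tTTGGCAAtggtagaactcacact
miR-4521: gCTAAGGAagtcctgtgctcag
miR-12135: tAAAGGTTtgtttgtaaa
miR-4485-3p: tAACGGCCgcggtaccctaa
miR-27a-5p: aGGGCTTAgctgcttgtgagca
miR-27a-3p: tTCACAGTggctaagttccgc
miR-27b-5p: aGAGCTTAgctgattggtgaac
miR-194-3p: cCAGTGGGgctgctgttatctg
miR-194-5p: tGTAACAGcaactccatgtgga
let-7c-3p: cTGTACAAccttctagctttcc
let-7c-5p: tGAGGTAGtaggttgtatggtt
miR-92a-1-5p: aGGTTGGGatcggttgcaatgct

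All 14 sequences are the deposited ones and have the same letters in the RefSeq table for GRCh38.p14, which holds 1438 of the 1619 entries and 475 of the 534 tested. In GRCh38, miR-1246 lies at chr2:176601024-176601042 on the minus strand, in an exon of MIR1246 in GENCODE release 29. miR-146a-5p lies at chr5:160485372-160485393 (plus strand), in MIR146A within an exon of the long non-coding RNA MIR3142HG, and miR-182-5p at chr7:129770447-129770470 (minus strand) in MIR182. miR-4521 lies at chr17:8186948-8186969 (plus strand) in MIR4521, and miR-12135 at chr15:73299962-73299979 (plus strand) in an intron of the protein-coding gene NEO1. miR-4485-3p lies at chr11:10508277-10508296 (minus strand), in an exon of MTRNR2L8, a nuclear gene that resembles mitochondrial ribosomal RNA. miR-27a-5p is at chr19:13836487-13836508 (minus strand) in MIR27A, and miR-27b-5p at chr9:95085463-95085484 (plus strand) in MIR27B, within an intron of C9orf3. miR-194-3p is at chr11:64891368-64891389 (minus strand), in MIR194-2 within an exon of MIR194-2HG. miR-92a-1-5p is at chr13:91351324-91351346 (plus strand), in MIR92A1 within an exon of MIR17HG. Among tested entries, miR-146a-5p shares its seed with miR-146b-5p and miR-27a-3p with miR-27b-3p and miR-9985, whereas no other tested entry shares the seed of miR-1246, miR-182-5p, miR-4521, miR-12135, miR-4485-3p, miR-27a-5p, miR-27b-5p or miR-194-3p.

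The HF6 pellet held 3829742 counts and the HF7 pellet 313382, while HF6 plate 1 held 3771606 and HF7 plate 1 held 2664147. The floor of 3 counts therefore stood at 1.09 and 10.5 CPM in the pellets and at 0.895 and 1.23 on plate 1, where CPM is the count scaled to a common library total with TMM factors, and the floor covers counting error only. Counts above 0 were found for 770 and 443 of the 1619 entries in the HF6 and HF7 pellets, and for 976 and 932 on plate 1. Over 275 miRNAs averaging 20 CPM or more, the correlation of log2 CPM across miRNAs was 0.947 between the pellets, 0.995 between the plate 1 libraries, and 0.953 to 0.973 between a pellet and a plate 1 library (a description, since miRNAs are not replicates). No library was a copy of another: the chi-square per degree of freedom was 105 for the pellets and 47.3 for plate 1. The HF7 pellet thus had the fewest counts of the 4, and the pellets were further apart from each other than the plate 1 libraries were.

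The distance between the 2 pellets bounds every comparison below. The median absolute log2 difference between HF7 and HF6 was 0.89 for the pellets and 0.27 for plate 1 over all 534 tested miRNAs, and 0.52 and 0.19 over the 175 that averaged 100 CPM or more. Among those 175, the pellets differed by 1 or more on the log2 scale for 42 miRNAs and the plate 1 libraries for 1. The widest gap belonged to miR-3613-5p, with a log2 difference of HF7 over HF6 of -3.91. miR-1248, which overlaps a small nucleolar RNA, followed at -3.69, then miR-4521 at -3.12, miR-3609 at -2.86 and miR-12136 at -2.85. In the other direction miR-12135 was higher in the HF7 pellet by a log2 of 1.55, miR-200a-5p by 1.503, miR-4485-3p by 1.21 and miR-1246 by 1.11. On plate 1 the same HF7 to HF6 difference was 0.49 for miR-12135, 0.39 for miR-200a-5p, 1.43 for miR-4485-3p and 0.88 for miR-1246, so all 4 were higher in HF7 in both collections. For 350 of the 534 miRNAs the gap between the pellets was larger than the fitted difference between pellets and plate 1. These measures are unlike: the gap is between single libraries on log2 CPM with 1 added, whereas the fitted difference is between groups. The HF7 pellet held 313382 counts, and the part of counting error in the gap was not tested. The names in these sentences were ranked by the gap itself and several fall outside the naming rule.

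Between the cell pellets and plate 1 cells, 27 of 534 tested miRNAs passed the edgeR quasi-likelihood test at a Benjamini-Hochberg adjusted p under 0.05 (5.06%). Of these, 7 were higher in the pellets (1.31%) and 20 lower (3.75%). The inflammation-linked miR-146a-5p, the epithelial miR-182-5p and the U2-like entry miR-1246 were among those higher. miR-4521, the entries miR-12135 and miR-4485-3p, and a set of passenger arms (miR-27a-5p, miR-27b-5p, miR-194-3p) were lower. The most abundant miRNA, miR-21-5p, stood at -0.06 ± 0.19 on the log2 scale. With no spiked-in RNA in the table, folds are set against the rest of a library's miRNAs. In bulk samples, fewer cells of a type and less RNA per cell cannot be told apart.

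The count of calls rested on single libraries. All 27 kept their direction without either pellet, but more of them lost the call without the HF6 pellet than without the HF7 pellet. Most miRNAs called without the HF6 pellet were not among the 27. The median log2 fold over the tested miRNAs was -0.61 without the HF6 pellet and 0.03 without the HF7 pellet. Without the HF6 pellet 66 miRNAs were called (17 higher, 49 lower), and without the HF7 pellet 103 (55 and 48). Without HF6 plate 1 it was 11 (1 and 10), and without HF7 plate 1 it was 9 (1 and 8). edgeR on these 4 libraries alone, without the other 8, called 0, with 64 at an unadjusted p under 0.05, and DESeq2 on all 12 called 38. Scaling by total counts alone called 5 higher and 47 lower, and the median log2 fold over all tested miRNAs went from -0.06 to -0.27. The 2 groups did not overlap for 241 of the 534 miRNAs (45.1%), 97 higher in both pellets (18.2%) and 144 lower in both (27.0%). With so few libraries in a group, groups can also fail to overlap without a difference, so a lack of overlap is no test.

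**Figure D1:**
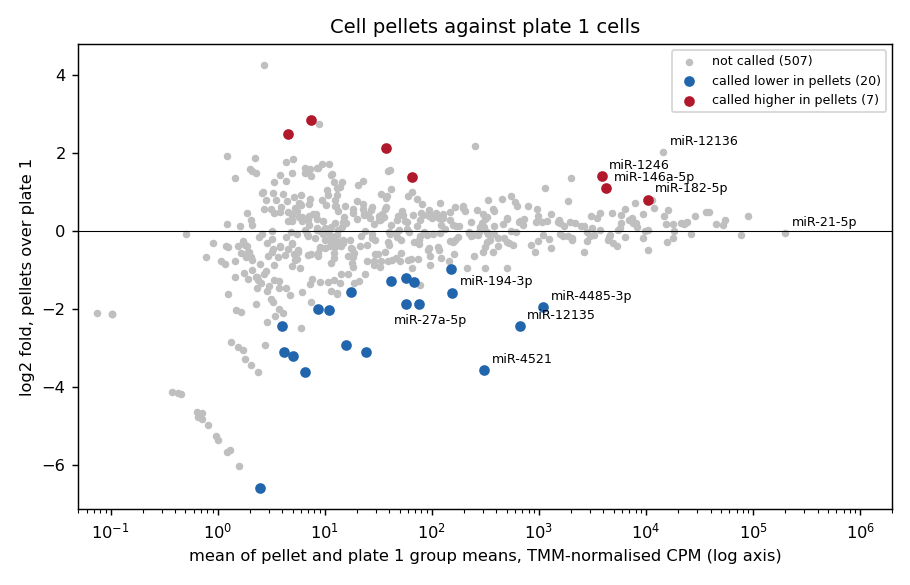
Log2 fold of cell pellets over plate 1 cells (y axis) against the mean of the 2 group means in TMM-normalised CPM (x axis, log scale), with 1 point for each of the 534 tested miRNAs. The 20 miRNAs called lower in the pellets are blue and the 7 called higher are red; the abundant miR-21-5p lies at -0.06, while miR-4521 lies at -3.58 and miR-1246 at 1.41.

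Among miRNAs called higher in the pellets, miR-1246 had the widest difference of those with 100 CPM or more. It was found at 3542 CPM in the HF6 pellet and 7633 in the HF7 pellet, against 1477 and 2722 on HF6 and HF7 plate 1. Both pellets lay above both plate 1 libraries, although the HF6 pellet and HF7 plate 1 were close. The group means were 5588 ± 2892 and 2099 ± 880.1 CPM (SD, n = 2 each), a log2 fold of 1.41 ± 0.37 (edgeR adjusted p = 0.0400), or 2.66-fold. The sequence of miR-1246 is also part of U2 small nuclear RNA, a core component of the spliceosome, so its counts may hold U2 fragments, and how the authors assigned such reads is not given in the sources used here.

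miR-146a-5p, a target of NF-kB that dampens innate immune signalling through IRAK1 and TRAF6, was found at 7276 CPM in the HF6 pellet and 4299.6 in the HF7 pellet, against 3125 and 2318 on HF6 and HF7 plate 1. The lower pellet value exceeded the higher plate 1 value, and in both groups HF6 was above HF7. The means were 5788 ± 2105 and 2722 ± 571 CPM, a log2 fold of 1.09 ± 0.30 (edgeR adjusted p = 0.0443). Its seed partner miR-146b-5p was not called, at 486 and 392 CPM in the pellets against 335 and 271 on plate 1 and a log2 fold of 0.55 ± 0.26.

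miR-182-5p, of a cluster with miR-183 and miR-96 that is known from sensory organs and raised in many carcinomas, was found at 12759.6 CPM in the HF6 pellet and 13753 in the HF7 pellet, against 8122 and 7136 on HF6 and HF7 plate 1. In TMM-scaled CPM the values were close within each group and the groups did not overlap. The closeness of the pellets depends on that scaling, whose factors were 0.718 for the HF6 pellet and 0.912 for the HF7 pellet. The log2 fold was 0.80 ± 0.21 (edgeR adjusted p = 0.0400), with means of 13256 ± 703 and 7629 ± 697 CPM. The cluster's other abundant guides were not called: miR-183-5p had 3593 and 4072 CPM in the pellets and 3285 and 2878 on plate 1 (0.31 ± 0.23), and miR-96-5p 2114 and 1141 against 1289 and 1496 (0.23 ± 0.31).

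The other 4 miRNAs called higher were below 100 CPM in both groups. miR-301b-3p, of the miR-130 and miR-301 family with the seed AGTGCAA, had 120.0 and 63.0 CPM in the pellets and 28.4 and 48.1 on plate 1, a log2 fold of 1.38 ± 0.36 (edgeR adjusted p = 0.0400). The remaining 3 fall outside the naming rule and were chosen after their values were seen. miR-574-5p stood at 93.1 and 24.5 CPM against 16.4 and 16.04, and most of its pellet level came from HF6. miR-95-5p rested on 34 and 4 counts in the pellets against 6 and 4, and miR-3145-5p on 23 and 2 against 3 and 5.

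Among miRNAs called lower in the pellets, miR-4521 had the largest difference of those with 100 CPM or more. It was found at 68.3 CPM in the HF6 pellet and 7.003 in the HF7 pellet, against 535 and 629 on HF6 and HF7 plate 1. These levels come from 188 and 2 counts in the pellets and 1793 and 1530 on plate 1, so the HF7 pellet lay under the floor of 3 counts. Both pellets were far below both plate 1 libraries, and they were also far from each other. The means were 37.7 ± 43.4 and 582 ± 66.5 CPM, a log2 fold of -3.58 ± 0.47 (edgeR adjusted p = 0.000553).

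miR-12135 and miR-4485-3p, the entries in a NEO1 intron and in MTRNR2L8, were lower in the pellets as well. miR-12135 was found at 111 CPM in the HF6 pellet and 326 in the HF7 pellet, against 921 and 1293 on HF6 and HF7 plate 1. Its log2 fold was -2.44 ± 0.40 (edgeR adjusted p = 0.00145), and the groups did not overlap. miR-4485-3p was found at 279 CPM in the HF6 pellet and 644 in the HF7 pellet, against 942 and 2537 on HF6 and HF7 plate 1. HF7 was above HF6 in both collections, and the HF7 pellet stayed below HF6 plate 1. The log2 fold was -1.95 ± 0.44 (edgeR adjusted p = 0.0226). The other arm, miR-4485-5p, was not called, at 10.2 and 17.5 CPM against 23.6 and 32.5 (-1.28 ± 0.45, edgeR adjusted p = 0.0965).

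**Figure D2:**
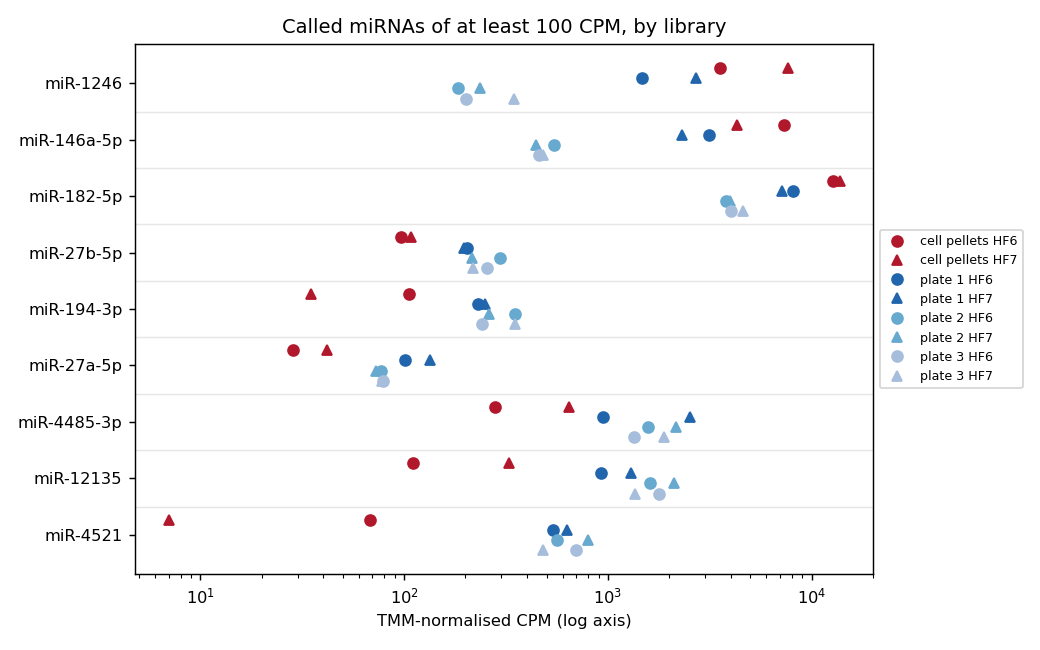
TMM-normalised CPM (x axis, log scale) of the 9 called miRNAs that averaged 100 CPM or more in the pellets or on plate 1, in each cell library (circles HF6, triangles HF7). Red points are the pellets, dark blue plate 1 and the lighter blues plates 2 and 3; for miR-4521 the HF7 pellet lies at 7.003 CPM and the HF6 pellet at 68.3, against 535 and 629 on plate 1.

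Passenger arms made up much of what was lower in the pellets. miR-27a-5p, the passenger of the miR-27a hairpin, was found at 28.4 CPM in the HF6 pellet and 42.0 in the HF7 pellet, against 101 and 134 on HF6 and HF7 plate 1. Its log2 fold was -1.88 ± 0.30 (edgeR adjusted p = 0.00138). The guide arm miR-27a-3p, known to restrain adipocyte differentiation, had 8135 and 12709.8 CPM in the pellets and 8948 and 11759.8 on plate 1, and its values overlapped (0.01 ± 0.25). The passenger thus differed while the guide of the same hairpin stood near 0.

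miR-27b-5p, the passenger of the paralogous hairpin, was found at 97.1 CPM in the HF6 pellet and 109 in the HF7 pellet, against 204 and 197 on HF6 and HF7 plate 1. It was lower by a log2 fold of -0.98 ± 0.27 (edgeR adjusted p = 0.0427), with close values within each group. Its guide miR-27b-3p stood at -0.00 ± 0.23. miR-194-3p was found at 105 CPM in the HF6 pellet and 35.01 in the HF7 pellet, against 231 and 250.0 on HF6 and HF7 plate 1. Both pellets were lower than plate 1, the HF7 pellet the most, and that pellet held 10 counts. The log2 fold was -1.59 ± 0.35 (edgeR adjusted p = 0.0171), while the guide miR-194-5p, a gut epithelial miRNA, stood at 0.38 ± 0.22 with 119414 and 84189 CPM against 81252 and 75145.

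Below 100 CPM the same kind of arm recurred. miR-92a-1-5p, from the miR-17-92 cluster, had 24.4 and 24.5 CPM in the pellets and 91.3 and 87.2 on plate 1 (-1.87 ± 0.30, edgeR adjusted p = 0.00138). Its guide miR-92a-3p had 24153 and 27916 against 22576 and 22314 (0.21 ± 0.19). miR-25-5p, from an intron of the replication helicase gene MCM7, had 32.7 and 52.5 CPM against 92.8 and 96.6 (-1.31 ± 0.29), and its guide miR-25-3p stood at -0.24 ± 0.22. miR-29b-1-5p had 40.4 and 24.5 against 87.4 and 79.4 (-1.21 ± 0.29), and its guide miR-29b-3p, which targets collagen genes, was not called at 0.56 ± 0.25. In each of these pairs the passenger was lower in both pellets and the guide did not pass the test.

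Of the 20 miRNAs called lower, 9 were the less abundant arm of one of 141 hairpins with both arms tested and 1 was the more abundant arm. When numbered hairpin copies were paired too (a step added after the data were seen), which adds miR-92a-1-5p and miR-29b-1-5p, 164 less abundant arms were tested, of which 11 (6.71%) were lower and 2 higher. Of 157 more abundant arms 1 (0.637%) was lower and 2 were higher. The median log2 fold was -0.10 for less abundant arms and 0.13 for more abundant ones. In none of the hairpins with a called arm was the other arm called too. Less abundant arms have fewer counts, and the part of depth in this difference was not tested.

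The ratio of the arms within a library does not depend on scaling between libraries, so it was tested by itself. limma on the log2 ratio of less to more abundant arm called 4 of 141 hairpins (2.84%), all with a smaller share of the less abundant arm in the pellets. The median change over the 141 was -0.21, with 82 below 0 and 59 above, and it turned to 0.19 with a pseudocount of 5 in place of 0.5. The groups did not overlap for 43 hairpins lower in both pellets (30.5%) and 22 higher in both (15.6%). The median share of the less abundant arm among reads of both arms was 4.35% and 2.56% in the HF6 and HF7 pellets and 5.44% and 5.65% on plate 1.

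For miR-194, the 3p arm made up 0.0882% in the HF6 pellet and 0.0416% in the HF7 pellet, against 0.283% and 0.332% on plate 1, a change in log2 ratio of -2.31 ± 0.41 (limma adjusted p = 0.00529). For miR-27a, the 5p arm made up 0.347% in the HF6 pellet and 0.329% in the HF7 pellet, against 1.12% and 1.13% on plate 1 (-1.71 ± 0.31, limma adjusted p = 0.00529). For miR-27a the pellet shares were close to each other, whereas for miR-194 they were further apart, with 10 counts of the 3p arm in the HF7 pellet, and in both hairpins both pellets lay below plate 1. For let-7c, the 3p arm made up 0.343% in the HF6 pellet and 0% in the HF7 pellet, against 1.66% and 1.83% on plate 1 (-2.84 ± 0.57, limma adjusted p = 0.00995), where the HF7 pellet had 0 counts of let-7c-3p against 286 of let-7c-5p, which allows a share of up to 1.05%. For miR-130b, whose 3p arm has the seed AGTGCAA, the 5p arm made up 20.5% in the HF6 pellet and 5.92% in the HF7 pellet, against 36.2% and 32.9% on plate 1 (-2.01 ± 0.47, limma adjusted p = 0.0248). Among the numbered copies added later, miR-92a-1 stood at -2.03 ± 0.30 (limma adjusted p = 0.00197), with a 5p share of 0.101% in the HF6 pellet and 0.0877% in the HF7 pellet, against 0.403% and 0.389% on plate 1. miR-29b-1 stood at -1.91 ± 0.29 (limma adjusted p = 0.00197), with a 5p share of 3.06% in the HF6 pellet and 2.32% in the HF7 pellet, against 10.2% and 9.04% on plate 1. The guide arms of miR-194, miR-92a-1 and miR-29b-1 also come from another hairpin, so these 3 shares are over more than 1 gene. The guide let-7c-5p lies within 1 mismatch of let-7a-5p and let-7b-5p, and miR-27a-3p within 1 mismatch of miR-27b-3p. As the rule for reads that match several entries is not given, the let-7c and miR-27a shares may also hold reads of those entries.

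The calls on arm ratios needed both plate 1 libraries. Leaving out either plate 1 library gave 0 called hairpins in limma, with 21 (without HF6) and 22 (without HF7) at an unadjusted p under 0.05. Leaving out the HF6 pellet gave 37 (23 lower, 14 higher) and leaving out the HF7 pellet 21 (18 lower, 3 higher), each of which held the same 4 hairpins.

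**Figure D3:**
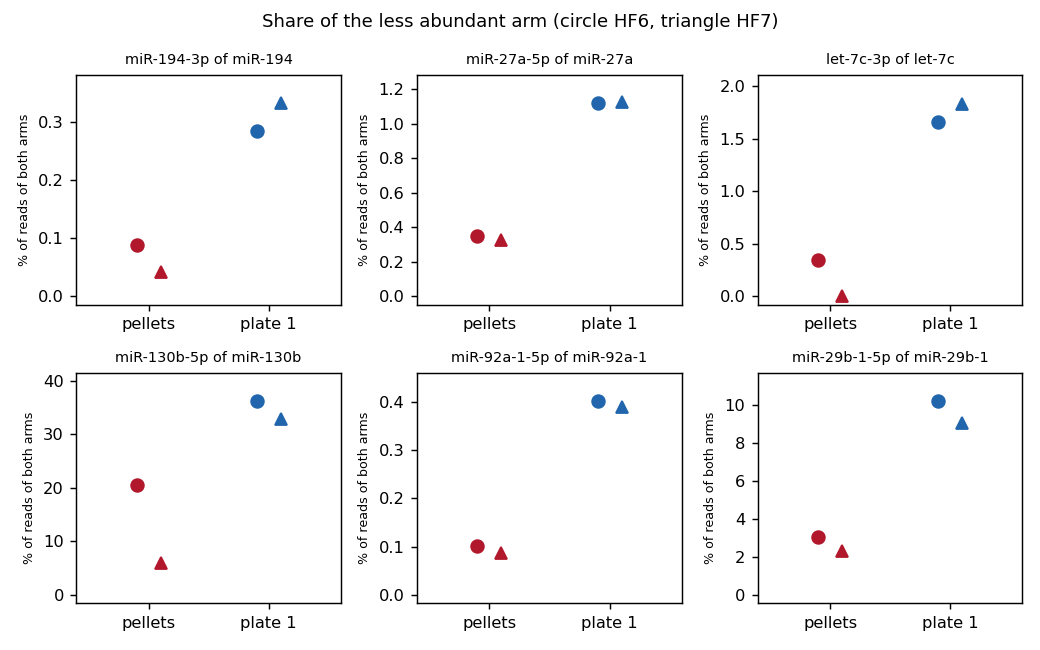
Share of the less abundant arm among the counts of both arms of a hairpin (y axis, %, starting at 0), in the pellets (red) and plate 1 libraries (blue), for the 4 called hairpins and the numbered copies miR-92a-1 and miR-29b-1. Circles are HF6 and triangles HF7; in each of the 6 panels both pellets lie below both plate 1 libraries, as for miR-27a-5p with 0.347% and 0.329% against 1.12% and 1.13%.

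The abundant miRNAs that mark the line as gut epithelium were present in both collections at high levels. miR-192-5p had 65256 and 54459.6 CPM in the pellets and 51423 and 47611 on plate 1 (0.27 ± 0.19, edgeR adjusted p = 0.425). miR-215-5p, of the same seed family, had 2248 and 2405 against 1379 and 1376 (0.76 ± 0.23, edgeR adjusted p = 0.0661). Neither passed the test, although both pellets lay above both plate 1 libraries for each. In the 6-member gut list 0 were called higher and 1 lower (miR-194-3p), and the median log2 fold was 0.35 against -0.06 over all tested.

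Of the 9 tested members of the miR-200 family, which keep epithelial cells in their state by repressing ZEB1 and ZEB2, 0 were called. miR-200b-3p had 77487 and 70482 CPM against 81032 and 78418 (-0.11 ± 0.17), and miR-200a-3p 47862 and 36848 against 29643 and 31246 (0.48 ± 0.22). miR-141-3p stood at 0.58 ± 0.29. miR-200c-3p had 73219 and 21806 CPM in the HF6 and HF7 pellets against 47328 and 36639 on plate 1, so that the pellets lay on either side of plate 1. Its log2 fold was 0.18 ± 0.39 with both pellets and -0.96 without the HF6 pellet, when it was called lower, and 0.78 without the HF7 pellet, when it was called higher. The family's median was 0.18, and it turned to -0.06 when libraries were scaled by total counts.

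miR-21-5p took 12.7% and 19.3% of counts in the HF6 and HF7 pellets and 17.3% and 19.2% on plate 1. After scaling it had 176376 and 211543 CPM against 194451 and 210544, with an edgeR adjusted p = 0.847. Of 11 tested colorectal tumour miRNAs, miR-182-5p alone was called higher, and the median was -0.04.

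Lists of families and clusters were described by their counts and medians, beside 7 higher, 20 lower and a median of -0.06 over all 534. All 9 let-7 members, which repress growth genes such as those of the RAS family and HMGA2, had log2 folds above 0 (median 0.25), and 0 were called. Over all 534 tested, 250 were above 0. Several let-7 entries are near copies, as let-7a-5p lies within 1 mismatch of let-7f-5p, let-7c-5p and let-7e-5p, so the members are not independent. let-7f-5p had 45787 and 44411 CPM against 34264 and 30516 (0.48 ± 0.19) and let-7a-5p 27255 and 18431 against 21003 and 18708 (0.20 ± 0.22). By library pair the let-7 median was 0.46 for HF6 and -0.05 for HF7, beside 0.08 and -0.39 over all 534, so the let-7 median lay above that of all tested miRNAs in both pairs. The miR-29 family had 1 lower of 7, miR-29b-1-5p, and 6 above 0 (median 0.39, by pair 0.55 for HF6 and -0.06 for HF7), with miR-29c-3p at 0.80 ± 0.23 (edgeR adjusted p = 0.0545).

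In the miR-23, miR-27 and miR-24 clusters 2 of 11 were lower, miR-27a-5p and miR-27b-5p, and 9 had log2 folds below 0 (median -0.49). Their abundant guides were not called: miR-23a-3p had 10387 and 6814 CPM against 11813 and 12292 (-0.49 ± 0.23) and miR-24-3p 17080.3 and 11306 against 15865 and 18638 (-0.28 ± 0.27). All 4 arms of miR-221 and miR-222, which repress the cell cycle inhibitor p27, were below 0 (median -0.52), and 0 were called. miR-222-3p had 6913 and 2307 CPM in the HF6 and HF7 pellets against 6811 and 5297 on plate 1. The HF6 pellet was thus level with plate 1 and the HF7 pellet lower.

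In the miR-17-92 cluster and paralogs, which MYC induces, 2 of 20 were lower, miR-92a-1-5p and miR-25-5p, and the median was -0.01. miR-20a-5p stood at 0.10 ± 0.24 and miR-93-5p at 0.19 ± 0.23. The miR-181 family had 1 lower of 8, miR-181b-3p, at 6 and 3 counts in the pellets against 79 and 64, and a median of -0.22. The miR-130 and miR-301 family had 1 higher of 8, miR-301b-3p (median -0.14). miR-181b-3p has the same seed as miR-181b-2-3p, and reads of such near copies may be split between entries.

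No member was called in the miR-30 (10 tested, median 0.23), miR-15/16 (9, 0.17), miR-26 (5, 0.43), or miR-148 and miR-152 (5, 0.41) families. The same held for the polycistrons of miR-99, miR-100 and miR-125 (9, -0.12), the CLCN5 intron cluster (16, 0.14), the HOX-cluster miRNAs (6, 0.04) and the miRNAs made without Drosha (10, -0.27). By library pair the medians for HF6 and HF7 were 0.41 and -0.56 for miR-15/16, 0.47 and -0.03 for miR-148 and miR-152, 0.04 and -0.65 for the polycistrons, 0.16 and -0.31 for CLCN5, 0.22 and -0.08 for HOX and 0.38 and -0.72 for those made without Drosha. Each of these changed sign between the pairs, while miR-30 (0.48 and 0.03) and miR-26 (0.66 and 0.30) did not. The median over all 534 also changed sign, at 0.08 for HF6 and -0.39 for HF7. Set against it, miR-148 and miR-152, CLCN5, HOX, miR-30 and miR-26 lay above in both pairs, and the polycistrons below in both. The miR-15/16 list and that made without Drosha lay above for HF6 and below for HF7. The medians of the CLCN5 and HOX lists turned to -0.09 and -0.15 under total counts. miR-148a-3p, of the miR-148 family, had 12833 and 16155 CPM against 9402 and 7473 and missed the threshold (0.78 ± 0.24, edgeR adjusted p = 0.0661). miR-125b-5p stood at -0.53 ± 0.26, and miR-100-5p was scarce, at 6.54 and 7.003 CPM against 3.88 and 3.29.

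Among 4 tested hypoxia-induced miRNAs 0 were called and all 4 had log2 folds above 0 (median 0.67). They are not independent, as miR-210-3p and miR-210-5p (1.45) are the arms of 1 hairpin. The other members, miR-103a-3p (0.004) and miR-107 (0.24), lie within 1 mismatch of each other. miR-210-3p, the miRNA most closely tied to hypoxia-inducible factors, was found at 1908 CPM in the HF6 pellet and 1194 in the HF7 pellet, against 927 and 527 on HF6 and HF7 plate 1. Both pellets were above both plate 1 libraries and HF6 was above HF7 in each. The log2 fold of 1.099 ± 0.33 missed the threshold (edgeR adjusted p = 0.0661). Of 6 NF-kB-induced miRNAs, miR-146a-5p alone was called (median 0.31).

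**Figure D4:**
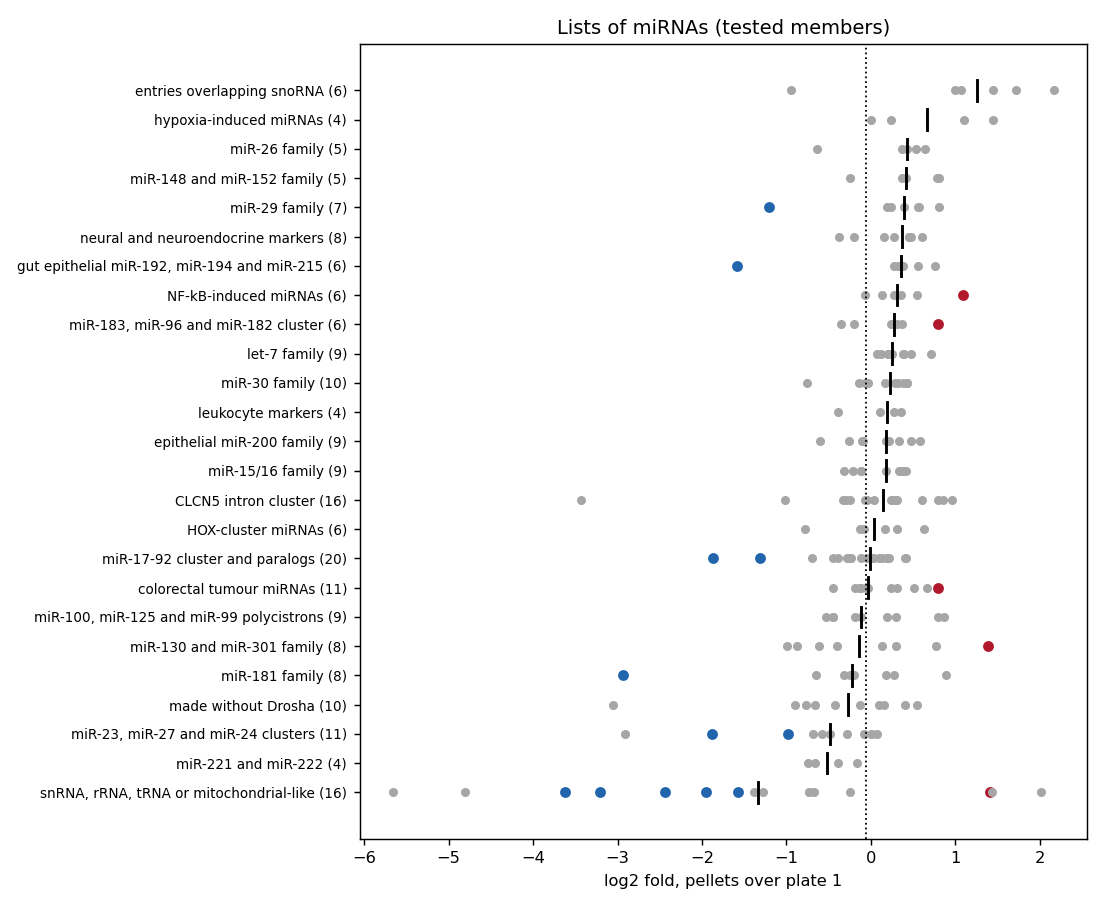
Log2 fold of pellets over plate 1 (x axis) of the tested members of each list with 3 or more tested members (number in brackets); blue points were called lower, red higher and grey not called. Black bars are list medians and the dotted line is the median of all 534 tested miRNAs, -0.06; the medians run from -1.33 for entries listed as snRNA, rRNA, tRNA or mitochondrial-like to 1.25 for those listed with snoRNA.

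Among the lists with 3 or more tested members, the entries listed with other RNA classes had the medians furthest from that of all tested miRNAs, in both directions. Of 16 tested entries listed for resemblance to small nuclear, ribosomal, transfer or mitochondrial-like RNA, 1 was higher in the pellets (miR-1246) and 5 lower, with 13 below 0. The 5 were miR-12135, miR-4485-3p, miR-7704, miR-1268a and miR-1268b. The list was drawn up from general knowledge, and of those 5 GENCODE places only miR-4485-3p in a gene of such a class (MTRNR2L8), while miR-12135 lies in an intron of NEO1, miR-1268b in an intron of CCDC40, miR-7704 in an exon of HOXD1 and miR-1268a in MIR1268A alone. The median was -1.33, or -1.01 with the 2 entries that had 0 counts in both pellets set at their bound. miR-1268b had 3 and 0 counts in the pellets against 38 and 34 on plate 1, and miR-1268a 3 and 0 against 28 and 26. They share a seed and lie within 1 mismatch of each other, so they are not independent. miR-7704 had 29 and 1 counts against 78 and 81.

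miR-12136, listed here with mitochondrial-like sequence, was found at 40156 CPM in the HF6 pellet and 5585 in the HF7 pellet, against 5903 and 5403 on HF6 and HF7 plate 1. The HF6 pellet was far above the other 3 libraries, which were near each other. The log2 fold of 2.02 ± 0.73 was not called (edgeR adjusted p = 0.150). Of 6 tested entries listed with small nucleolar RNA, which guides modification of ribosomal RNA, 0 were called and 5 were above 0 (median 1.25). The medians by library pair were 1.29 for HF6 and 0.12 for HF7. miR-3609 had 716 and 98.0 CPM in the HF6 and HF7 pellets against 82.4 and 109 on plate 1, and miR-1248 374 and 28.0 against 492 and 365, so for both the HF7 pellet was far below the HF6 pellet. In GENCODE miR-1248 lies in SNORA81 and miR-664a-3p in SNORA36B, whereas miR-3609 has no small nucleolar RNA at its place in a TRRAP intron. miR-664a-3p had 97.8 and 73.5 against 51.3 and 37.8 (0.99 ± 0.29, edgeR adjusted p = 0.0545).

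The other miRNAs called lower fall outside the naming rule and were chosen after their values were seen. They are let-7b-3p, let-7c-3p, miR-185-3p, miR-3615, miR-4664-3p, miR-7974 and miR-9901, all under 100 CPM. let-7b-3p, a passenger arm, had 17.8 and 38.5 CPM in the pellets against 55.8 and 52.6. let-7c-3p had 15 and 0 counts in the HF6 and HF7 pellets against 65 and 47 on plate 1. miR-3615 had 12 and 0 against 66 and 26, and miR-7974 5 and 6 against 127 and 88. All of these rest on few pellet counts. miR-9901 had 1 count in each pellet against 19 and 17, and miR-185-3p 4 and 0 against 26 and 16. miR-4664-3p had 0 counts in the pellets and 28 over plate 1, at least 4.901-fold lower with a floor of 3 counts over the group.

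Of the markers of other cell types, the liver and 14q32 lists were near 0, and the neural and leukocyte lists were high in both collections. Of 9 leukocyte markers 4 could be tested and 0 were called, with the list summing to 3868 and 3123 CPM in the HF6 and HF7 pellets and 3105 and 3027 on plate 1. That sum is nearly all miR-142-5p and miR-142-3p, known from blood cells (0.11 ± 0.28 and 0.28 ± 0.28), while miR-223-3p had 0 counts in all 4 libraries. Erythroid markers summed to 15.996 and 21.0 CPM in the HF6 and HF7 pellets and 9.85 and 6.58 on plate 1, and miR-451a had 32 and 2 counts in the pellets against 14 and 8. Endothelial markers summed to 135 and 179 CPM in the HF6 and HF7 pellets and 145 and 125 on plate 1, stromal markers to 14.9 and 14.01 CPM in the HF6 and HF7 pellets and 12.8 and 6.58 on plate 1 and muscle markers to 133 and 154 CPM in the HF6 and HF7 pellets and 83.0 and 81.4 on plate 1. The liver marker miR-122-5p had at most 2 counts, and no entry of the 14q32 imprinted cluster had more than 9. That cluster summed to 2.91 and 0 CPM in the HF6 and HF7 pellets and 20.6 on each plate 1 library, and none of its entries could be tested. Neural and neuroendocrine markers summed to 76788 and 45703 CPM in the HF6 and HF7 pellets and 53630 and 54956 on plate 1, and 0 of 8 tested were called (median 0.36). Most of the sum was miR-7-5p, known from neurons and endocrine cells, at 71367 and 38546 CPM against 48583 and 50466 (0.15 ± 0.24), with the pellets on either side of plate 1. miR-375-3p, also abundant in gut endocrine cells, had 4606 and 6453 CPM against 4328 and 3742.

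The mature sequences of the called miRNAs differed in base composition. The median GC content was 58.1% for the 20 called lower, 40.9% for the 7 called higher and 47.8% for all 534. The median log2 fold was 0.15 for the 127 miRNAs under 40% GC and 0.18 for the 153 from 40% to 50%. It was -0.12 for the 145 from 50% to 60%, and -0.61 for the 109 at 60% or more. In the same order of bands, the medians for the HF6 pair were 0.24, 0.27, 0 and -0.50. Those for the HF7 pair were -0.33, -0.14, -0.50 and -1.19, all below 0. Over all 534 the pair medians were 0.08 for HF6 and -0.39 for HF7. Of the 20 called lower, 9 were in the highest band and 6 in the next, while none of the 7 called higher was at 50% or more. Over the 175 miRNAs averaging 100 CPM or more the same bands had medians of 0.14, 0.24, -0.03 and -0.22 (44, 70, 47 and 14 miRNAs). Spearman's rho between GC content and log2 fold was -0.27 over 534 miRNAs and -0.23 over the 175, given as a description since the points share the same 4 libraries. By library pair it was -0.30 for HF6 and -0.15 for HF7. The part of base composition in the differences was not tested. miR-12135, at 22.2% GC, and miR-181b-3p, at 38.1%, were lower and had a low GC content.

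**Figure D5:**
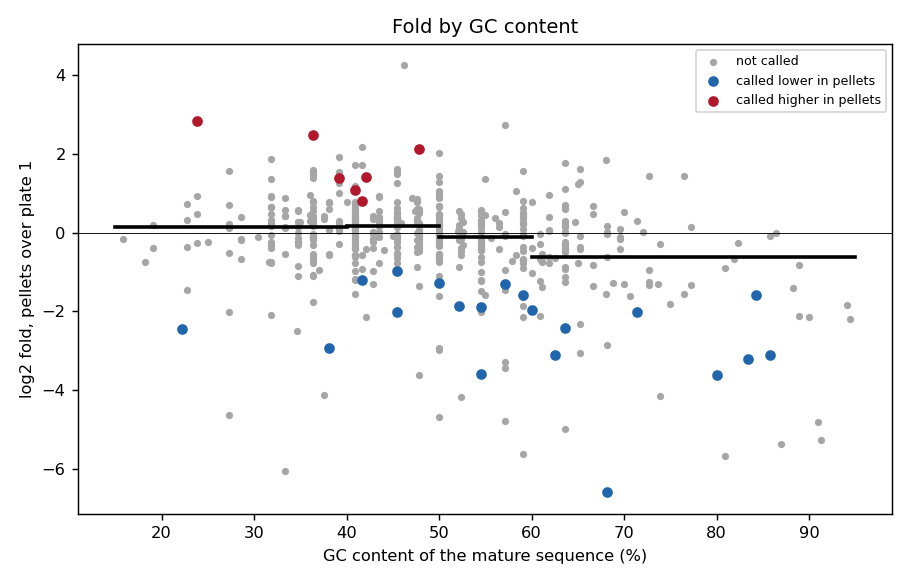
Log2 fold of pellets over plate 1 (y axis) against the GC content of the mature sequence (x axis, %), with 1 point for each of the 534 tested miRNAs. Black lines are the medians of the 4 GC bands, from 0.15 under 40% to -0.61 at 60% or more; blue points were called lower and red points higher.

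Plates 2 and 3 carry the same cell label as plate 1, and they show where plate 1 lies. Plate 1 against plates 2 and 3 gave 139 of 534 called (26%, 77 higher and 62 lower on plate 1), which fell to 61 without HF6 plate 1 and 74 without HF7 plate 1. Pellets against plates 2 and 3 gave 223 (41.8%, 110 higher and 113 lower). These comparisons share plate 1 or pellet libraries with the one above, so their values are set side by side and not compared as lists. miR-1246 averaged 209.9 CPM on plate 2 and 274 on plate 3, and plate 1 was above them by a log2 fold of 3.13 ± 0.30 (adjusted p = 1.52e-06) in edgeR. miR-146a-5p averaged 494 and 471, with plate 1 above by 2.50 ± 0.25 (adjusted p = 1.68e-06). miR-182-5p averaged 3887 and 4297, with plate 1 above by 0.90 ± 0.18 (adjusted p = 0.00106). For these 3 miRNAs plate 1 was thus intermediate, with pellets highest and plates 2 and 3 lowest.

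Among the miRNAs lower in the pellets, several did not differ between plate 1 and plates 2 and 3 by the test. miR-4521 averaged 681 and 589 CPM on plates 2 and 3 (plate 1 over them -0.12 ± 0.35 (adjusted p = 0.822)), and miR-12135 1866 and 1567 (-0.63 ± 0.32 (adjusted p = 0.167)). For miR-4485-3p plate 1 stood at 0.01 ± 0.36 (adjusted p = 0.991) and for miR-194-3p at -0.33 ± 0.29 (adjusted p = 0.440). None of these 4 passed that test, and the pellets lay below every plate library for each. miR-27a-5p was 1 of the exceptions, higher on plate 1 than on plates 2 and 3 by 0.62 ± 0.21 (adjusted p = 0.0392), and miR-92a-1-5p was another, at a log2 fold of plate 1 over plates 2 and 3 of -0.77 ± 0.22 (adjusted p = 0.0132). As a share of both arms, miR-27a-5p was instead lower on plate 1, at 1.12% and 1.13% for HF6 and HF7. That share was 2.60% and 2.92% on plate 2 and 2.56% and 2.64% on plate 3.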

How the data were processed

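Total small RNA of the 14 libraries in the deposited table was extracted (miRNeasy) and turned into sequencing libraries (NEXTflex small RNA kit), per the labels' protocols, whose extraction text speaks of extracellular samples although these 4 are labelled cells. The tools named are cutadapt 2.10, Bowtie 1.3.1 and FastQC, with build GRCh38, per the submitters' processing notes. The authors deposited expected counts of reads for 1619 mature miRNA entries, not normalized. Of the values 4.4% are not whole, and the rule for reads that match several entries, the miRNA release and the filters are not given in the sources used here. The sample of HDM medium without cells was not analysed here.

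Counts were rounded to whole numbers. The 12 replicated libraries were fitted as 6 groups of 2 in edgeR 4.0.16 (R 4.3.3; TMM, filterByExpr, quasi-likelihood, 6 residual degrees of freedom, biological coefficient of variation 0.217), which left 534 miRNAs with 99.96% of the counts. Arm ratios were tested in limma 3.58.1 with 0.5 added to each count. A call is a Benjamini-Hochberg adjusted p under 0.05. Standard errors of edgeR folds were derived from the log2 fold and its quasi-likelihood F statistic, and those of limma come from the fit. SDs are between the 2 libraries of a group. The scripts were tested on simulated data. Alternatives were DESeq2 1.42.0, limma-voom, other scalings and filters, smaller fits, the HF number as a block and leaving out each library.

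The miRNAs named are the 12 largest called changes in each direction averaging 100 CPM or more in a group with no overlap, a fixed set of 13, the called and the 3 most abundant members of each list, the called arm ratios, and the 10 most abundant miRNAs. The samples, members and lists were chosen with earlier results of these data known.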

Additional observations from a re-analysis of the deposited data

Results flagged for a closer look

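All 27 miRNAs called between the cell pellets and plate 1 cells had more than 3 counts in the single library of HDM media, and the same 27 had more than 3 counts in the single library of regular media. Neither library enters the comparison, and with 1 library of each there is no test, so the floor of 3 counts is the reference. These were the deepest libraries of the series, with 4811436 counts in HDM media and 4896921 in regular media, and 1039 entries above 0 in each. The share of all 534 tested miRNAs above that floor was not taken. Passing it is therefore not shown to be particular to the called miRNAs. miR-4521 had 3626 counts in HDM media and 4083 in regular media, miR-1246 had 1135 and 824, and miR-146a-5p had 519 and 313.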

How the results depend on the processing

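All 27 called miRNAs kept their direction under each of the 15 alternatives in which they had a value, but many lost the call. miR-4521 and miR-27a-5p stayed called in 14 of 15, miR-12135 in 13 of 14, and miR-92a-1-5p and miR-194-3p in 12 of 15, whereas miR-1246 did in 7 of 14, miR-182-5p in 7 of 15 and miR-146a-5p in 8 of 15. Of the single-miRNA values under an alternative, 1413 kept their side of the threshold, 168 lost the call and 71 gained it. The 1413 can include values that changed sign without a call in either fit, which were not counted apart. Another 2 changed sign with a call in the main fit or the alternative. Both arose without the HF6 pellet, where miR-200c-3p stood at -0.96 and miR-362-5p at -1.31. Over the 4 fits that leave out a library these 2 miRNAs ran up to 0.78 and 0.89. The main counts are 27 called, 7 higher and 20 lower. DESeq2 gave 20 higher, RLE size factors 16, no low-count filter 13 and a minimum of 50 counts (reached by 2 or more libraries) 11. limma-voom called 6 (2 higher, 4 lower), total counts as the only scaling 52 (5 higher, 47 lower) and the 8 cell libraries alone 10 (2 and 8). edgeR on only the 4 libraries compared called 0 (0 higher, 0 lower), with 64 at an unadjusted p under 0.05, where DESeq2 on all 12 called 38 and limma-voom 6. That fit has fewer residual degrees of freedom, and the cause of the other moves was not tested. Leaving out 1 of the 4 libraries gave from 9 to 103 calls, with 1 to 55 higher and 8 to 49 lower. A lone sample is then assumed to vary like the other groups.

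With the HF number as a replicate block, the joint fit called 34 (11 higher, 23 lower) and the fit of the 4 libraries 6 (1 higher, 5 lower). The correlation of the deviations of same-numbered samples was 0.21 between pellets and plate 1, 0.37 between pellets and plate 3, 0.27 between plates 2 and 3 and from -0.09 to 0.17 for the other pairs of groups. No label says that a number marks a shared culture or day, and 2 numbers are too few to show pairing from the data, so the samples were not treated as paired, and a call lost under the block is no weaker effect. The block moved the arm ratios from 4 to 7 calls.

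Arm ratios gave 10 calls of 91 hairpins with at least 50 counts in both arms, 19 in edgeR's diffSpliceDGE, 14 of 164 with the numbered copies that were added after seeing the data, and 0 in limma on only the 4 libraries, with 17 at an unadjusted p under 0.05. Leaving out 1 library gave 0 to 37. The median change turned to 0.19 with a pseudocount of 5 and to 0.10 without the filter on low counts, so its sign over all hairpins depends on those settings, while the 4 called hairpins were called again without the filter and 3 of them with the pseudocount of 5.

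Plate 1 against plates 2 and 3 gave 216 calls (104 lower) in limma-voom, 101 lower under total counts, and 61 to 125 when 1 library was left out (40 to 71 higher, 21 to 62 lower). Pellets against plates 2 and 3 gave 108 (73 higher, 35 lower) in limma-voom, 190 lower under total counts, and 151 to 280.0 (64 to 137 higher, 87 to 143 lower) when a library was left out. The HF7 pellet limits what can be seen: with a floor of 10.5 CPM, a miRNA under that level cannot be shown to be absent from it.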

Other observations

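The p53-induced miR-34 and miR-449 family had 2 tested members, the arms of miR-34a, and neither was called (median log2 fold 1.13). One of them, miR-34a-3p, rests on 12 and 5 counts in the HF6 and HF7 pellets against 10 and 3 on plate 1. miR-1-3p, a muscle miRNA, had 29.4 and 98.0 CPM in the HF6 and HF7 pellets against 16.4 and 18.1 on plate 1 (1.57 ± 0.47, edgeR adjusted p = 0.0661), and both pellets lay above both plate 1 libraries. miR-10a-5p, from the HOXB cluster, had 20304 and 17160.0 CPM against 18794 and 14642 and overlapped between the groups. The linked miR-181a-5p and miR-181b-5p, known from T cell development, stood at -0.32 ± 0.24 and -0.20 ± 0.23, with both pellets below both plate 1 libraries for each.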
